A study of Mus musculus with 12 samples.

Results

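The retinoic acid genes described here are *Aldh1a1*, *Aldh1a2* and *Aldh1a3* for synthesis, *Crabp1*, *Crabp2* and *Rbp4* for binding and transport, and *Rara*, *Rarb* and *Rarg* for the nuclear receptors. The list was drawn up with earlier results of these data known, its genes were then taken by symbol alone, and 8 of the 9 had a row among the 15838 genes of the tables. *Rbp4* had none. The tables thus do not hold every annotated gene, and the rule by which genes were kept is not given in the sources used here. For levels, ranks and percentiles, "all genes" means the 15838 genes with a row, not the whole genome. A gene without a row has no value here and is not shown to be absent from the tissue. RNAseq was performed on CEC (corneal endothelial cells) attached to the Descemet membrane of *Slc4a11*-/- (KO) and *Slc4a11*+/+ (WT) mice aged 10 weeks. The groups KO male, KO female, WT male and WT female held 3 libraries each. The KO is a germline deletion in *Slc4a11* and so is not limited to the cornea, and KO and WT mice were littermates of crosses between heterozygous C57BL/6 mice.

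Retinoic acid is made from vitamin A. Retinol is carried in blood by RBP4, oxidized to retinaldehyde, and then oxidized irreversibly to retinoic acid by retinaldehyde dehydrogenases of the ALDH1A family. Inside the cell retinoic acid is held by CRABP1 or CRABP2, broken down by CYP26 enzymes, or bound by a retinoic acid receptor, which sits on DNA as a pair with a retinoid X receptor and switches target genes on. In the developing eye, retinoic acid from the optic cup and surface tissues signals to the periocular mesenchyme, the neural crest tissue from which the corneal endothelium and stroma arise.

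The value used for each gene is the authors' mean over all 12 libraries, in log2 CPM (the log2 of the read count of a gene relative to the size of its library). It is a single number per gene, with no replicate error, and it pools KO with WT and males with females. The levels in each library and in each group, and the differences between KO and WT or between the sexes, were not analysed here, and no test was made. The depth of the libraries is unknown from these tables. A CPM value given below is the mean raised back from the log2 scale, which is a geometric mean over libraries.

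Retinoic acid receptors recognize direct repeats of a short half-site on DNA, and *Rarb* is known as a target of the pathway to which it belongs. A half-site of AGGTCA or AGTTCA or GGTTCA or GGGTCA, followed by another of them in the same orientation with 1, 2 or 5 bases between them, was searched on both strands of RefSeq promoter windows (GRCm38.p6, 250 bases before to 50 after a start site). Windows were found for 7 of the 9 genes, and 1 of the 7, *Rarb*, held a match. *Aldh1a3* and *Crabp2* had no window and were not searched. Since *Rarb* was a known target before the half-sites and spacings were set, its match describes the sequence and is no test of the search. Of all 27025 genes with a window 0.688% held a match, and 0.115% held one with a spacing of 5. Counted over the 32851 windows, since a gene can have several, these shares were 0.588% and 0.0974%. The match in *Rarb* has a spacing of 5, lies from -53 to -37 relative to the start site at chr14:16575513-16575529 on the minus strand, and is given with its half-sites in capitals. Of the other pathway genes, 41 had a window and 2 held a match, *Bco1* with a spacing of 1 and *Cyp26a1* with a spacing of 5. These genes too were listed beforehand from textbook knowledge of the pathway, so their matches describe the sequence and are no test of the search. The match of *Cyp26a1*, which encodes a retinoic acid-degrading enzyme, lies at chr19:37697776-37697792, on the strand opposite to the gene, and is set beside that of *Rarb*. Of the 4 annotated *Rarb* transcripts that span the match in GENCODE M21, 2 have an exon there.
*Rarb*: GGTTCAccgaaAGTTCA
*Cyp26a1*: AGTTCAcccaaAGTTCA

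Both sequences are direct repeats of half-sites with the same spacing, and in both as printed the second half-site is AGTTCA. *Cyp26a1* had no row in the tables, whereas *Rarb* was measured at 4.41 log2 CPM, so the presence of such a repeat and the level of the gene are given as separate descriptions. No match in the other windows says only that these letters are absent from 300 bases around each start site.

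Among the retinoic acid genes *Aldh1a1* had the highest mean level, both in CPM and per length. *Aldh1a1* (ENSMUSG00000053279), on the forward strand of chromosome 19 from 20492715 to 20643465, stood at 7.98 log2 CPM or 253 CPM, rank 511 of 15838 genes. ALDH1A1 oxidizes retinaldehyde and other aldehydes and is known as an abundant soluble protein of the cornea in several mammals. *Aldh1a3* (ENSMUSG00000015134), on the reverse strand of chromosome 7 from 66390890 to 66427517, stood at 3.02 log2 CPM or 8.12 CPM. *Aldh1a2* (ENSMUSG00000013584), the main retinaldehyde dehydrogenase of the embryonic mesoderm, lies on the forward strand of chromosome 9 from 71215789 to 71296243. It had the lowest level of the 8 genes, -0.40 log2 CPM or 0.76 CPM, and was the 1 gene of them under 1 CPM. Of all genes in the tables, 9.04% were under 1 CPM.

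**Figure D1:**
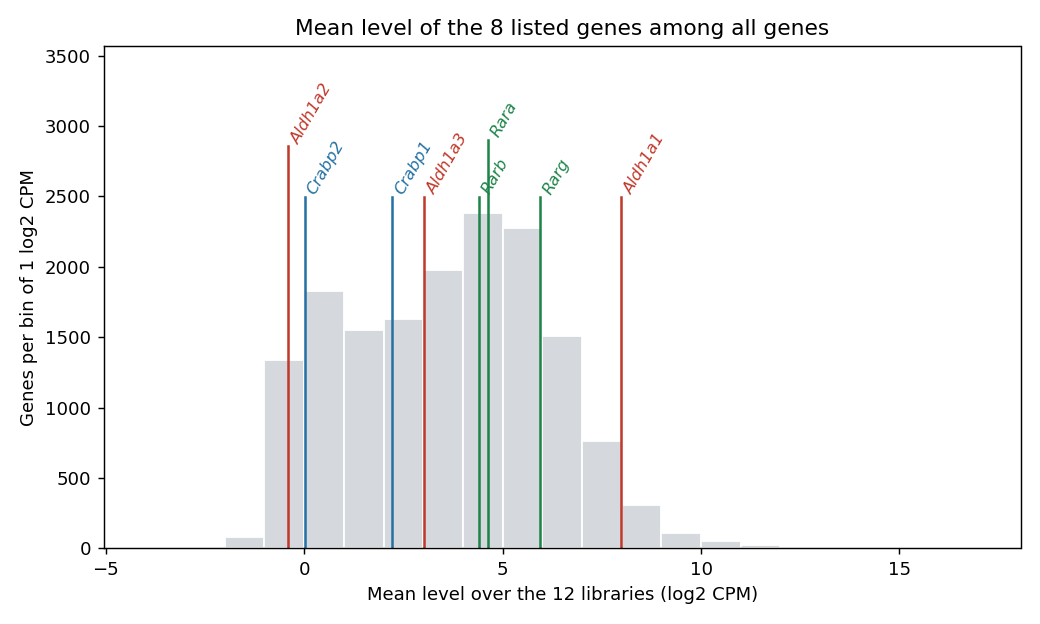
Histogram of the mean level of all 15838 genes in bins of 1 log2 CPM (x axis, log2 CPM over the 12 libraries; y axis, genes per bin), with a line for each of the 8 retinoic acid genes, red for the *Aldh1a* genes, blue for *Crabp1* and *Crabp2* and green for the receptors. *Aldh1a1* at 7.98 log2 CPM lies in the upper tail, the 3 receptors lie to the right of the median of 3.76, and *Crabp2* and *Aldh1a2* lie close to 0.

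*Crabp1* and *Crabp2* encode small cytoplasmic proteins, CRABP1 being linked to the sequestration and breakdown of retinoic acid and CRABP2 to its delivery to the receptors. *Crabp1* (ENSMUSG00000032291), on the forward strand of chromosome 9 from 54764748 to 54773110, stood at 2.22 log2 CPM or 4.66 CPM. *Crabp2* (ENSMUSG00000004885), on the forward strand of chromosome 3 from 87948666 to 87953376, stood at 0.02 log2 CPM or 1.01 CPM. The genes are short, with 802 and 1322 exonic bases, so their CPM understates their level relative to the other genes.

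All 3 receptor genes were above the median of all 15838 genes with a row, which was 3.76 log2 CPM. *Rarg* (ENSMUSG00000001288), on the reverse strand of chromosome 15 from 102234938 to 102257517, was the highest receptor at 5.95 log2 CPM or 61.9 CPM, and 81.9% of genes were at or below it. *Rara* (ENSMUSG00000037992), on the forward strand of chromosome 11 from 98927818 to 98974942, stood at 4.63 log2 CPM or 24.8 CPM. *Rarb* (ENSMUSG00000017491), on the reverse strand of chromosome 14 from 16430839 to 16819156, stood at 4.41 log2 CPM or 21.2 CPM. The median over the 8 genes was 3.71 log2 CPM, beside 3.76 over all genes, and 4 of the 8 were above that median.

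Levels of different genes can be compared only per length, and for this the CPM was divided by the length in kb of all annotated exons of the gene in GENCODE M21. *Aldh1a1* remained first with 51.3 CPM per kb, followed by *Rarg* with 14.5, *Crabp1* with 5.81, *Rara* with 5.67, *Rarb* with 4.03, *Aldh1a3* with 1.76, *Crabp2* with 0.765 and *Aldh1a2* with 0.335 CPM per kb. The median of all genes was 3.45 CPM per kb. *Aldh1a1* was thus 3.53-fold above *Rarg*, and *Rarg* 2.50-fold above *Crabp1*. With the longest transcript these folds were 5.13 and 3.60, and with the coding length 3.74 and 3.97. *Crabp1* and *Rara* differed by only 1.02-fold, and their order turned when the coding length was used, with 11.3 CPM per kb for *Crabp1* and 17.9 CPM per kb for *Rara*. *Rarb* also passed *Crabp1* then, at 15.8 CPM per kb. With the longest transcript *Rara* had 7.32, *Rarb* 6.83 and *Crabp1* 5.81 CPM per kb. The places of the other 5 genes were unchanged with either the coding length or the longest transcript. Whether neighbours in this order differ beyond the spread between libraries was not tested.

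Within each family a single gene held most of the level per length. *Aldh1a1* made up 96.1% of the summed CPM per kb of the 3 *Aldh1a* genes, *Aldh1a3* 3.30% and *Aldh1a2* 0.628%. *Aldh1a1* was 29.1-fold above *Aldh1a3* and 153-fold above *Aldh1a2* per kb of exons. With the longest transcript these folds were 45.5 and 320, and with the coding length 31.9 and 345. *Crabp1* made up 88.4% of the 2 *Crabp* genes and was 7.60-fold above *Crabp2* per kb of exons, or 4.64-fold per coding length. *Rarg* made up 59.9% of the 3 receptors, *Rara* 23.4% and *Rarb* 16.6%. *Rarg* was 2.56-fold above *Rara* and 3.60-fold above *Rarb*.

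**Figure D2:**
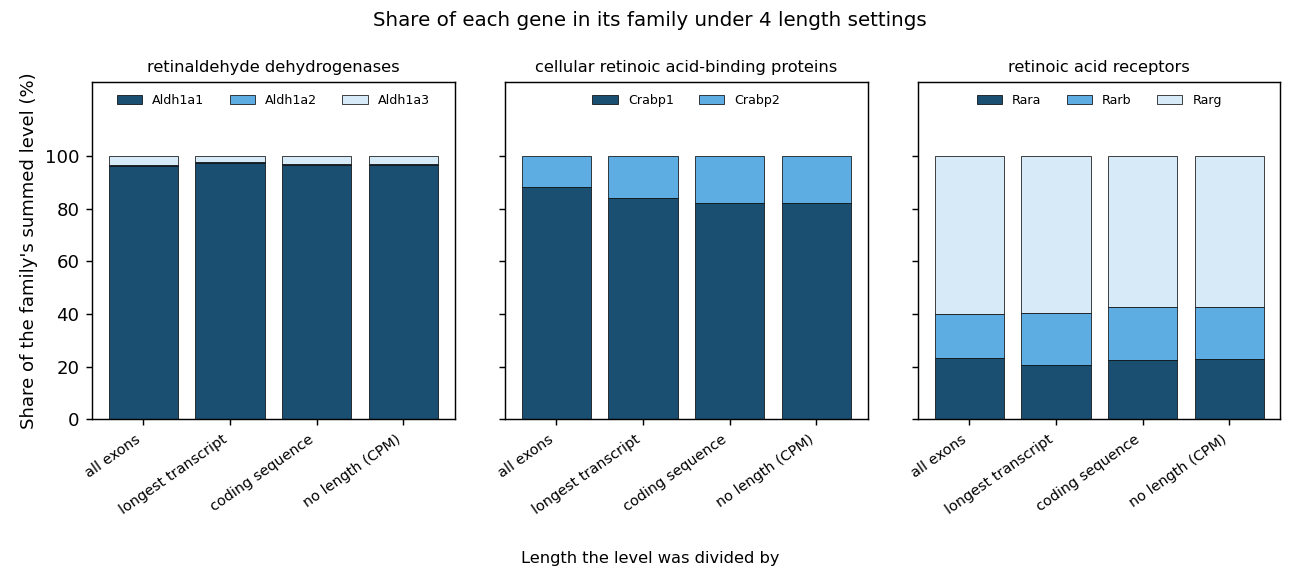
Share of each gene in the summed mean level of its family (y axis, percent) when the level is divided by all exons, by the longest transcript, by the coding sequence or by no length (x axis). The leading gene is the same in every setting, with *Aldh1a1* between 96.1% and 97.6%, *Crabp1* between 82.2% and 88.4%, and *Rarg* between 57.2% and 59.9%.

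Reads from one member could be counted for another only where the genes share sequence, and their coding sequences diverge. Identity over aligned coding bases was 68.9% between *Aldh1a1* and *Aldh1a2*, 68.2% between *Aldh1a1* and *Aldh1a3*, and 69.6% between *Aldh1a2* and *Aldh1a3*. It was 70.8% between *Crabp1* and *Crabp2* and from 72.1% to 74.0% among the receptors. No pair of members shared a run longer than 26 coding bases, whereas the reads were 50 bases long. A relative outside the list was closer. *Aldh1a7* (ENSMUSG00000024747), on the reverse strand of chromosome 19 from 20692953 to 20727562 and thus near *Aldh1a1*, was identical to *Aldh1a1* at 91.6% of aligned coding bases. The longest run shared by *Aldh1a1* and *Aldh1a2* and that shared by *Aldh1a1* and *Aldh1a7* show the contrast.
*Aldh1a1* with *Aldh1a2*: ttcaagatgtctggaaatgg
*Aldh1a1* with *Aldh1a7*: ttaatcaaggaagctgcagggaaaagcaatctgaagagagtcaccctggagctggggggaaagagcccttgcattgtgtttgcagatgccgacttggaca

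The second run, of 100 bases, spans coding positions 757 to 856 in both genes and is longer than a read. Of the 2309 windows of 50 bases along the *Aldh1a1* transcript, 151 or 6.54% occur in *Aldh1a7* as well. *Aldh1a7* itself stood at 0.13 log2 CPM or 1.09 CPM, so *Aldh1a1* was given 232 times as many CPM as *Aldh1a7*.

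The level of *Rarb* carries a further uncertainty. At its 3′ end *Rarb* overlaps *Top2b*, the gene of DNA topoisomerase II beta, which runs on the opposite strand from 16365179 to 16435462. The overlap covers 1793 exonic bases, 34.1% of the exonic bases of *Rarb*, of which 558 are coding in *Rarb* and 0 in *Top2b*. Of the 3059 windows of 50 bases along the *Rarb* transcript with the longest coding sequence, 1655 or 54.1% occur in *Top2b* on the opposite strand. *Top2b* stood at 7.68 log2 CPM or 205 CPM, 9.65 times *Rarb*. The libraries were stranded, but whether the counting used the strand is not given in the sources used here. The level of *Rarb* could thus include reads of *Top2b* or lack reads from the overlap, and these cannot be told apart. A further 227 exonic bases of *Rarb* are shared with the antisense gene *Gm48162*, which had no row. None of the other 8 retinoic acid genes shared exonic bases with an annotated neighbour, and in *Rara* 0.510% of windows of 50 bases occur in another gene.

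Of 51 other genes of the pathway on a fixed list, 33 had a row. Their median level was 4.47 log2 CPM, beside 3.76 over all genes, and the 18 without a row are not in it. This median does not describe each step. Of the 33 genes, 20 were above the median of all genes, among them all 7 receptor cofactors. So were 8 of 11 genes between retinol and retinaldehyde, both receptor partners and 1 of *Fabp5* and *Ppard*. For genes that respond to retinoic acid it was 2 of 6, for retinol carriers and entry 0 of 4, and for breakdown 0 of 1. Upstream of the *Aldh1a* genes, *Stra6*, which encodes the membrane receptor of RBP4, had 0.233 and *Lrat*, which esterifies retinol for storage, 0.104 CPM per kb. Of 10 genes for retinol carriers and entry, 4 had a row, and *Ttr*, *Rbp3*, *Rbp7*, *Rlbp1*, *Rpe65* and *Bco2* had none. *Rbp4* and *Ttr*, whose proteins together carry retinol in blood, were thus both without a row. The retinol that reaches the tissue was not measured.

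For the step between retinol and retinaldehyde, 11 of 18 genes had a row. *Adh1*, an alcohol dehydrogenase that accepts retinol, was highest at 27.8 CPM per kb. *Rdh10*, the retinol dehydrogenase required for retinoic acid synthesis in the embryo, stood at 7.93 CPM per kb. *Dhrs3*, which reduces retinaldehyde back to retinol, stood at 7.20 CPM per kb. The ratio of *Rdh10* to *Dhrs3* was 1.10, or 1.02 with the longest transcript and 1.38 with the coding length. Of the 3 *Cyp26* genes for breakdown, *Cyp26b1* had a row with 0.339 CPM per kb, and *Cyp26a1* and *Cyp26c1* had none. The level of *Cyp26b1* per kb of exons was 0.192 times that of *Aldh1a3* and 0.0066 times that of *Aldh1a1*.

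**Figure D3:**
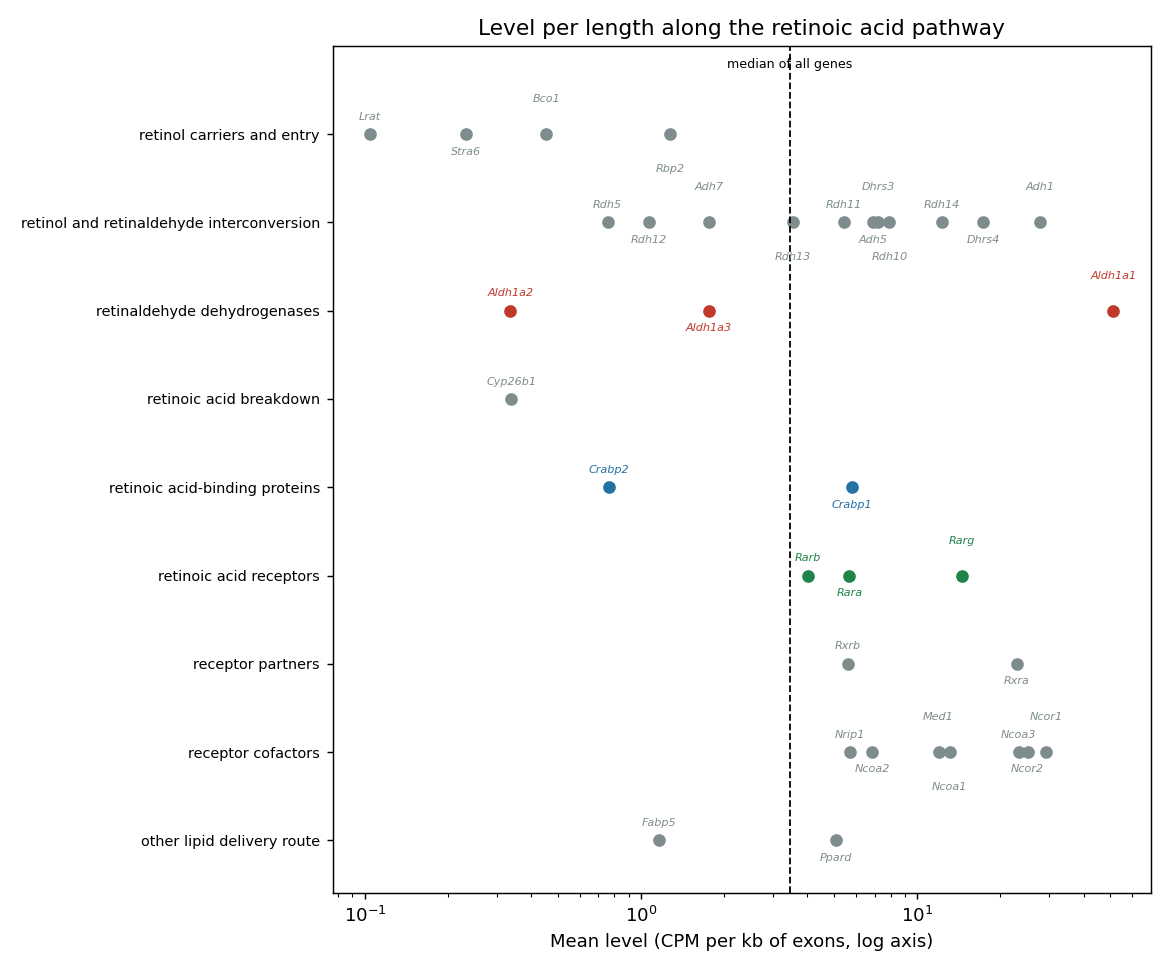
Mean level of each listed gene with a row (x axis, CPM per kb of exons, log axis) by its step in the retinoic acid pathway (rows). The retinoic acid genes described here are in colour and the other pathway genes in grey, and the dashed line is the median of all genes, 3.45 CPM per kb. *Aldh1a1* stands at 51.3, and all 3 receptors, both measured partners and all 7 cofactors lie to the right of the dashed line.

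On the receptor side, *Rxra* stood at 22.9 and *Rxrb* at 5.60 CPM per kb, and *Rxrg* had no row. These encode the retinoid X receptors that pair with retinoic acid receptors. *Rxra* was 1.58-fold above *Rarg*, the highest of the receptors. All 7 cofactors had a row, from 5.71 CPM per kb for *Nrip1* to 29.3 CPM per kb for *Ncor1*, the latter encoding a corepressor held by receptors without ligand. *Fabp5* and *Ppard*, which encode an alternative carrier and receptor for retinoic acid, stood at 1.16 and 5.09 CPM per kb. The place of *Fabp5* depends on the length used. It was 0.200 times *Crabp1* per kb of exons and 0.220 times with the longest transcript, but 0.902 times with the coding length.

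Of 8 genes known to respond to retinoic acid, 6 had a row, 2 of them above the median of all genes in log2 CPM. *Foxc1* stood at 7.40 log2 CPM. It encodes a transcription factor of the periocular mesenchyme and is a marker of corneal endothelium as well, so its level does not single out the pathway. *Tgm2* stood at 4.86 log2 CPM, and *Rarres1*, *Rarres2*, *Meis1* and *Meis2* ranged from -0.87 to 1.39 log2 CPM. *Hoxb1* and *Stra8* had no row.

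The labelled tissue was checked against markers of CEC and of neighbouring cells. All 11 CEC markers had a row, with a median of 10.22 log2 CPM and 10 of 11 above the median of all genes, and *Col8a2*, a collagen of the Descemet membrane, was highest at 12.79 log2 CPM. *Car2* was the exception at 0.74 log2 CPM. All 7 markers of stromal keratocytes also had a row above that median, with a median of 10.06 log2 CPM. They ranged from 5.23 log2 CPM for *Cd34* to 12.07 for *Col1a2*, with *Kera* at 8.42 and *Lum* at 8.49 log2 CPM. *Aldh3a1*, an aldehyde dehydrogenase of corneal keratocytes and epithelium, stood at 10.06 log2 CPM and, per length, at 548 CPM per kb beside 51.3 for *Aldh1a1*. It stands in both the stromal and the epithelial list. Epithelial markers had a median of 2.44 log2 CPM, with 3 of 8 above the median of all genes. Beside *Aldh3a1* these were *Krt5* at 5.12 and *Krt15* at 4.75 log2 CPM, whereas *Krt12* stood at 2.60 log2 CPM. The 6 pigment cell markers ranged from -0.58 to 3.26 log2 CPM, none above the median of all genes. Of the lens list 5 of 6 had a row, from -0.27 to 1.16 log2 CPM, and of the retina list 2 of 5, from 0.47 to 0.61 log2 CPM, with *Rpe65* and *Rlbp1* among those without a row. Leukocyte markers ranged from 0.94 to 4.30 log2 CPM. Of the muscle list *Myh11* at 7.69 and *Acta2* at 5.64 log2 CPM had a row, and *Des*, *Cnn1*, *Acta1* and *Ckm* had none. The vessel markers ran from 0.71 log2 CPM for *Cdh5* to 6.36 for *Kdr*. In bulk RNA the cells that a transcript came from cannot be told apart, and the part of stromal cells in the levels of the retinoic acid genes was not tested.

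**Figure D4:**
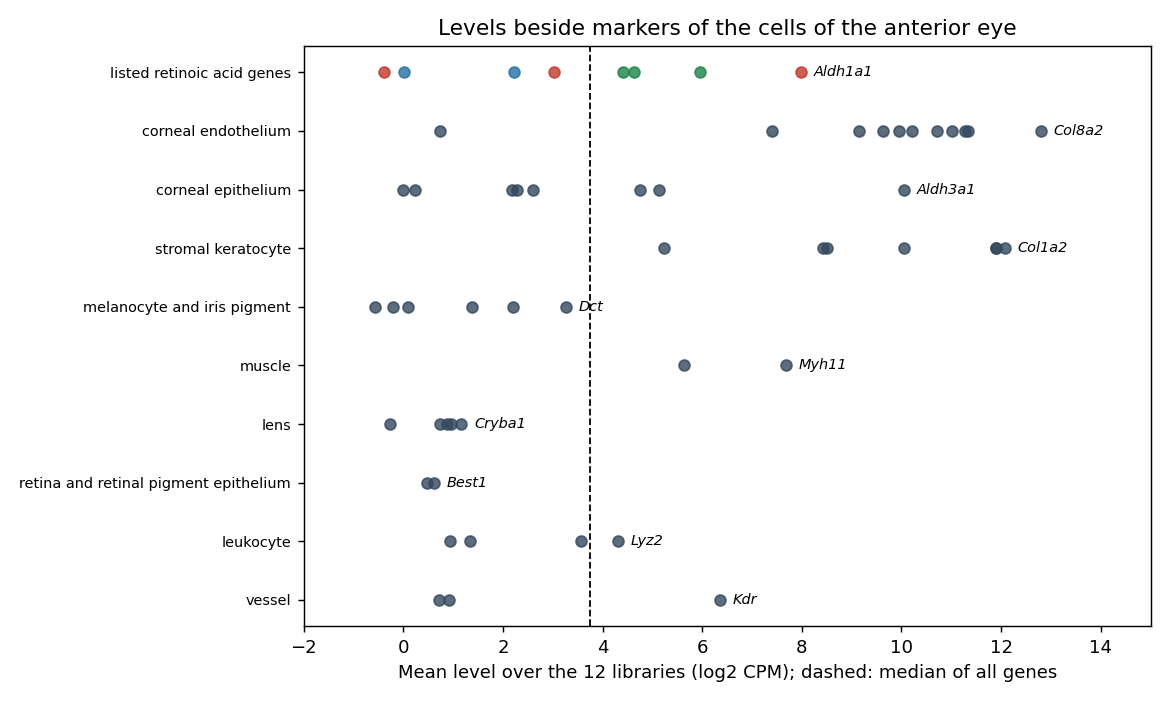
Mean level (x axis, log2 CPM over the 12 libraries) of the 8 retinoic acid genes (top row, red for *Aldh1a* genes, blue for *Crabp* genes, green for receptors) and of marker genes of corneal endothelium and neighbouring cells (other rows). Each point is a gene, the highest gene of each row is named, and the dashed line is the median of all genes, 3.76 log2 CPM. The endothelial and stromal rows lie mostly to the right of *Aldh1a1* at 7.98, and the lens, retina and pigment rows lie to the left of the dashed line.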

How the data were processed

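RNAseq libraries were prepared from total RNA with a stranded low-input kit and sequenced as paired-end reads of 50 bases, with 3 libraries per group and 12 in all. Per the study's methods, the authors used Hisat2 for alignment to GRCm38/mm10, expressed counts as CPM, scaled them by TMM (trimmed mean of M values), and used limma with voom. Versions, the counter and the gene annotation are not given in the sources used here. The authors deposited 3 tables, for genotype, sex and their interaction, of the same 15838 genes, each with a mean log2 CPM per gene. This mean differed by 0 between the tables. The sample records describe pooled membranes and the methods describe pairs from single mice, which bears on no value here. The other 5 columns of values in each table are results of the authors' own comparison (log2 fold change, its statistics and p-values) and were not used here. Without values per library, the depth is unknown and precision cannot be given.

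The mean was placed by rank and percentile among all genes, and per kb of the union of annotated exons in GENCODE M21, which held 15824 of the 15838 genes. Coding sequences came from GENCODE M21 transcripts, the longest per gene, aligned globally with Biopython 1.88 in Python 3.11.15. Promoter windows are RefSeq's. Steps were tested on simulated data. The retinoic acid genes and all lists were chosen with earlier results of these data known. Of the genes on these lists, 5 are not reported here, and the lists were counted without them; the marker list for nerve was left out. Named genes are the other genes of these lists, plus *Aldh1a7* and *Top2b*, which were added for their sequence relation to a listed gene. Alternatives were the genes in the percentile, the length, the table and the motif.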

Additional observations from a re-analysis of the deposited data

How the results depend on the processing

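Of the 8 retinoic acid genes, 4 were above the median of all genes, and this number was 4 among genes of at least 1 CPM. The sex and interaction tables hold the same mean, so reading it from them is no separate check. Among the 8801 genes of at least 10 CPM it was 2, by construction, since the median of that set is higher. Per length the number was 5 with all exons or the longest transcript and 4 with the coding length. *Crabp1* moved between the sides of the median, with 32.6% of genes at or below it in CPM, 63.0% per kb of exons and 43.1% per coding length. With half-sites AGGTCA and AGTTCA alone, 0 retinoic acid genes had a promoter match, by construction, since the upstream half-site in *Rarb* is GGTTCA. With a spacing of 5 alone, 1 had a match, beside 0.115% of all genes with a window. No paired analysis was possible because no result comes from a test and the pooled mean carries no replicate. Leaving out libraries and another library scaling could not be run on the pooled mean. No error can be given for any level, and for low genes such as *Aldh1a2* and *Crabp2* the number of reads behind the mean is unknown.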
